A study of Mus musculus with 1073 samples.

Results

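Expression of the Tie receptors and angiopoietins was examined in the mouse yolk sac. The group was chosen as a list of 5 genes, *Tek*, *Tie1*, *Angpt1*, *Angpt2* and *Ptprb*, and all 5 are among the 15967 genes of the filtered tables. Cells were sorted into 13 populations and captured 1 by 1 on the Fluidigm C1 system, and 926 of 1073 captured cells passed the filter of the study. E7.25 (92.5% of 159 captured cells) and E7.75 (140 cells) cells came from *Flk1*-GFP/+ embryos and were sorted as GFP+, the reporter standing at the *Kdr* locus, after trypsin. All later cells came from C57BL/6 embryos and were released with collagenase/dispase. Haematopoietic progenitor/colony forming cells (HPC) were TER119- CDH5+ CD41+ at E8.25 (73 cells) and E8.5 (89 cells), but TER119- CDH5- CD45+ CD41low at E9.5 (46 cells) and E10.5 (87 cells). Primitive erythroid cells (EryP) were TER119+ CDH5- CD41- at E8.5 (66 cells) and also CD45- at E10.5 (3 cells). Megakaryocytes (Mk) were TER119- CDH5- CD41+ at E8.5 (37 cells) and TER119- CDH5- CD45- CD41high at E10.5 (73 cells). Macrophages (Mac, E10.5, 25 cells) were TER119- CDH5- CD41- CD45+. Endothelial cells (Endo) were TER119- CD41- CDH5+ at E8.5 (79 cells) and also CD45- at E10.5 (61 cells). The labels give neither embryo nor pool of a cell, so each population is 1 sample and no test between populations was possible. Intervals of shares are exact 95% binomial intervals and cover counting error only.

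*Tek* encodes Tie2, a receptor tyrosine kinase of endothelial cells and of some blood cells. *Tie1* encodes a related receptor that binds no angiopoietin with high affinity and acts with Tie2 on the cell surface. Angiopoietin 1, from *Angpt1*, is the ligand that activates Tie2, whereas angiopoietin 2, from *Angpt2*, activates or blocks it depending on the context. *Ptprb* encodes VE-PTP, an endothelial phosphatase that removes phosphate from Tie2. The pathway is known for its part in vessel remodelling and stabilisation, and in adult marrow for the contact between blood stem cells and their surroundings.

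On GRCm38 (GENCODE M21), *Tek* (ENSMUSG00000006386) covers chr4:94739289-94874976 on the + strand and *Tie1* (ENSMUSG00000033191) covers chr4:118471191-118490061 on the - strand. *Angpt1* (ENSMUSG00000022309) covers chr15:42424723-42676977 and *Angpt2* (ENSMUSG00000031465) chr8:18690263-18741562, both on the - strand. *Ptprb* (ENSMUSG00000020154) covers chr10:116275523-116389535 on the + strand. The promoters of the receptors are shown because their patterns parted in blood cells. RefSeq promoters (GRCm38.p6, 250 bases before to 50 after the annotated start) were found for 2 of the 5 members. They lie at chr4:94739039-94739338 (+) for *Tek* and chr4:118489800-118490099 (-) for *Tie1*. Capitals mark matches to AGGAAG, a core of ETS factor sites, to AGATAA, a site of the GATA family, and to the E box CAGCTG, each searched on both strands.
Tek: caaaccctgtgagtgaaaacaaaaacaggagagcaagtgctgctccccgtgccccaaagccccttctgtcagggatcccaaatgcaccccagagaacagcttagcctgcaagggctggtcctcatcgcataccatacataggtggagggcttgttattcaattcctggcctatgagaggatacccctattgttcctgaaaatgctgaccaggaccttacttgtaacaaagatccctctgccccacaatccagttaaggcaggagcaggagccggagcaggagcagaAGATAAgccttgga
Tie1: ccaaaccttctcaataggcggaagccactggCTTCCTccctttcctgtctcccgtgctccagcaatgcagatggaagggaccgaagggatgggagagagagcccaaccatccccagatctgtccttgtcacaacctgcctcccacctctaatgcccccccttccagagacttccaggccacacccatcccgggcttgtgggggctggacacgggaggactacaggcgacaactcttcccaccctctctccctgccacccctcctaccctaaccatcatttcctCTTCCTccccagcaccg
The *Tek* window held 1 match to AGATAA on its own strand, and the *Tie1* window held 2 matches to AGGAAG on the opposite strand. No match overlapped another. Among 32851 promoters of the same length, 11.2% held AGATAA, 35.4% held AGGAAG and 16.3% held CAGCTG, which was in neither window. A match is a match of letters only.

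Total counts per cell ranged from 484539 to 5955450 (median 1890168), and the medians of the populations ranged from 1559151 (E8.5 HPC) to 3538303 (E8.5 Mk). The sorted labels were checked against marker lists. The 7 endothelial markers were found in an average of 98.2% of E8.5 Endo and 98.4% of E10.5 Endo cells. The 4 macrophage markers were found in an average of 98% of Mac cells, and the 5 megakaryocyte markers in 98.9% of E10.5 Mk cells. E8.5 Mk went against its label in part: its megakaryocyte markers summed to a median of 184 CPM (E10.5 Mk, 5331 CPM), whereas its 4 erythroid markers were found in an average of 97.97% of cells and summed to a median of 22997 CPM. Transcripts of both sexes (*Xist* and 4 genes of the Y chromosome, each side with at least 5 counts) were found in 293 of 926 cells (31.6%), from 0 of 3 E10.5 EryP cells to 59 of 79 E8.5 Endo cells (74.7%). No doublet caller was run, and counts of cells holding a pair of members are given with and without these cells. The libraries used 96 index pairs, all of them in more than 1 of the 14 lanes and none repeated within a lane, and no cells had identical counts. E7.25, E8.25 and E8.5 populations were read on the first flow cell, and E7.75, E9.5 and E10.5 populations on the second. Stage and sequencing run thus cannot be told apart between populations of different flow cells.

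*Tek* was highest in endothelium at both stages, where it was found in every cell. In E8.5 Endo its level ranged from 77.4 to 1648 CPM with a median of 681, and in E10.5 Endo from 0.612 to 3224 CPM with a median of 546. CPM here are the counts of a cell scaled by its size factor. The means were 717 ± 385 (SD over 79 cells) and 887 ± 823 CPM (61 cells), a log2 ratio of mean CPM + 1 of 0.31, and the ranges of the stages overlapped. In the 19 E10.5 Endo cells that failed the filter, *Tek* was again found in all 19.

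*Tie1* was found in 75 of 79 E8.5 Endo cells (94.9%, 87.5 to 98.6) and 59 of 61 E10.5 Endo cells (96.7%, 88.7 to 99.6). Its level ranged from 0 to 214 CPM (median 37.4) at E8.5 and from 0 to 11346 CPM (median 42.8) at E10.5. The medians were close, whereas the mean was 47.0 CPM at E8.5 and 328 CPM at E10.5. A cell with 2580 counts of *Tie1* gave the highest value, and its size factor scaled it 2.64 times as strongly as its total count would. Without the highest cells the E10.5 mean was 143.9 CPM. The log2 ratio between stages was 2.77 with all cells, 1.66 without the highest cells and 0.87 as a difference of mean log2 values, the last of which does not reach the 2-fold change used as the threshold.

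*Ptprb* was found in all endothelial cells and differed more firmly between stages. At E8.5 its level ranged from 2.47 to 740 CPM with a median of 192, and at E10.5 from 0.306 to 3509 CPM with a median of 675. The mean was 236 ± 180 CPM at E8.5 and 895 ± 832 CPM at E10.5 (SD over 79 and 61 cells), 3.79-fold higher at E10.5 (log2 ratio 1.92). Of 9938 genes compared between these populations, 21.2% were 2-fold or more higher at E10.5 and 16.4% lower. Under each of the 6 alternatives run, *Ptprb* stayed on the same side of the 2-fold threshold. *Angpt2* was 2.17-fold higher at E10.5 (mean 44.5 against 20.5 CPM), although its median was 0 at E10.5 and 0.399 CPM at E8.5. Its log2 ratio was 1.08 by mean CPM, but 0.84 with a pseudocount of 10 CPM and 0.04 from mean log2 values, neither past 2-fold.

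**Figure D1:**
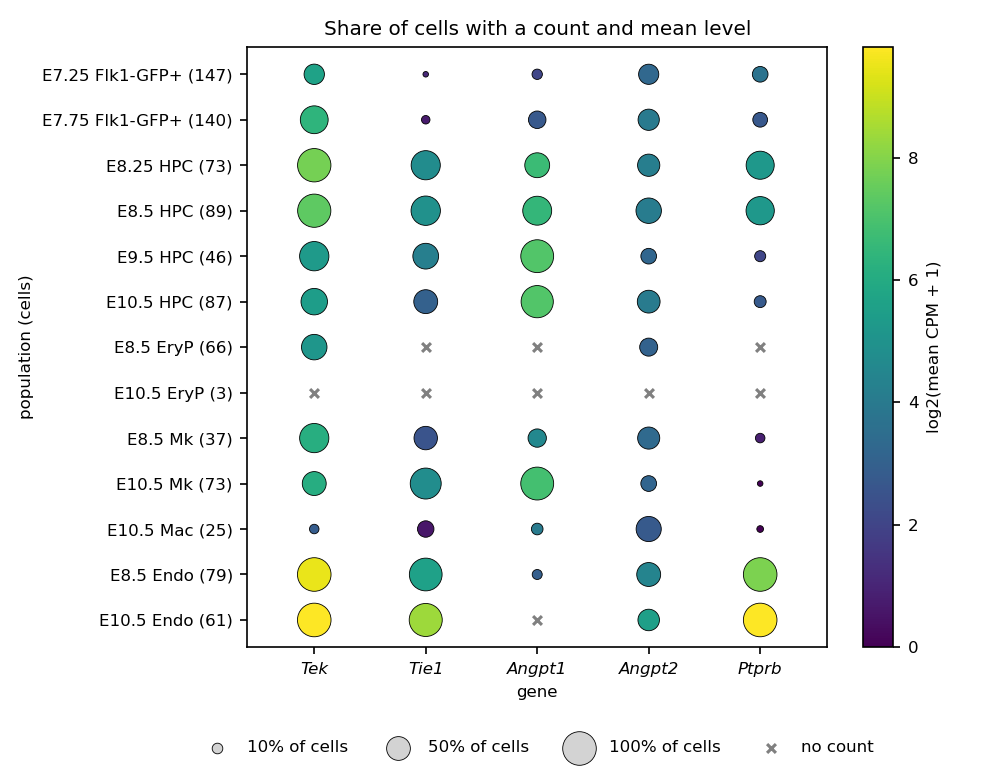
Share of cells with 1 or more counts (dot size) and log2 of mean CPM + 1 (colour) for the 5 genes (x axis) in the 13 populations (y axis, number of cells in parentheses). Crosses mark populations with no count. *Tek* and *Ptprb* are brightest in both endothelial populations, and *Angpt1* has large dots in HPC and in E10.5 Mk but a cross in E10.5 Endo.

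In HPC, 3 members were lower at the later stages and *Angpt1* was not. *Tek* ranged from 0 to 1008 CPM with a median of 145.5 at E8.25, from 0 to 1191 CPM (median 89.9) at E8.5, from 0 to 276 CPM (median 6.31) at E9.5 and from 0 to 532 CPM (median 3.07) at E10.5. It was found in 72 of 73, 87 of 89, 35 of 46 and 54 of 87 cells in that order of stages. The early and late HPC overlapped at low levels, and the highest cells were at E8.25 and E8.5. From E8.5 to E10.5 the mean of *Tek* was 3.89-fold lower (163 to 41.8 CPM), that of *Tie1* 4.22-fold lower (29.5 to 6.98 CPM) and that of *Ptprb* 6.34-fold lower (36.4 to 5.74 CPM). Of 9184 genes compared, 12% were 2-fold or more lower and 9.02% higher. *Ptprb*, the phosphatase, was found in 51 of 73 HPC (69.9%, 58.0 to 80.1) at E8.25 and 63 of 89 (70.8%, 60.2 to 79.9) at E8.5, but in 5 of 46 (10.9%, 3.62 to 23.6) at E9.5 and 11 of 87 (12.6%, 6.48 to 21.5) at E10.5. Without the highest cells, the log2 ratio of *Ptprb* was -3.22 in place of -2.47. From E9.5 to E10.5, which share a gate and a flow cell, *Tie1* was 2.45-fold lower by mean CPM (8.73% of 9050 genes were 2-fold or more lower and 5.86% higher). Its log2 ratio of -1.18 did not reach 2-fold with a pseudocount of 10 CPM (-0.68), scaled by total count (-0.85), from mean log2 values (-0.52) or without the highest cells (-0.94). The other members were not past 2-fold by mean CPM, but *Angpt2* was without the highest cells (log2 ratio 1.06 in place of 0.81) and *Ptprb* was from summed counts (1.40 in place of 0.71).

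The early HPC gate takes CDH5+ cells and the late gate CDH5- cells, so stage, gate and flow cell cannot be told apart. The 7 endothelial markers summed to a median of 349 CPM per cell (0 to 1756) at E8.5 and 45.3 CPM (0 to 2253) at E10.5, with none of them at 0 in all cells of either stage. Their part in the difference was not tested. Among the 51 E10.5 HPC with no count of *Cdh5*, *Tek* was found in 51.0% (36.6 to 65.2) and *Tie1* in 41.2% (27.6 to 55.8), against 62.1% and 50.6% of all 87 cells. Between E8.25 and E8.5, which share a gate and a flow cell, no member differed by 2-fold in mean CPM (log2 ratios from -0.41 to 0.19; 2.86% of 8879 genes were higher and 3.82% lower). For *Angpt1* the direction depended on the measure, with a log2 ratio of -0.18 by mean CPM, 0.67 without the highest cells and 1.1998 from mean log2 values, the last past 2-fold.

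Within the early HPC, the members were set against endothelial transcripts cell by cell. Over 73 cells at E8.25 and 89 cells at E8.5, Spearman's rho with the summed endothelial markers was 0.59 and 0.64 for *Ptprb*, 0.49 and 0.45 for *Tek*, and 0.37 and 0.42 for *Tie1*. For *Angpt1* it was -0.02 and 0.15. Against the summed erythroid markers, rho was -0.35 and -0.47 for *Angpt1*, -0.41 and -0.31 for *Tie1*, and -0.41 and -0.25 for *Ptprb*, so cells rich in erythroid transcripts tended to hold less of these 3 genes. For *Tek* it was -0.35 and 0.01. These cells share a library lane and a scaling within each stage, and the values are descriptions. Without the cells holding transcripts of both sexes, rho with the endothelial markers at E8.5 was 0.57 for *Ptprb*, 0.27 for *Tek*, 0.44 for *Tie1* and 0.38 for *Angpt1* (49 cells).

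*Tek* without *Tie1* was the pattern of primitive erythroid cells. In E8.5 EryP *Tek* was found in 38 of 66 cells (57.6%, 44.8 to 69.7), with levels from 0 to 290 CPM and a median of 0.585. At 10 counts or more it was found in 23 cells (34.8%), and on counts thinned to 840000 per cell in 50.0%. *Tie1*, *Angpt1* and *Ptprb* were each found in 0 of 66 cells, a count that allows up to 4.55%. By comparison, 10.7% of 12324 genes that reached a mean of 10 CPM in some population had no count in any E8.5 EryP cell. In E8.5 EryP the median total was 2101140 counts and the median number of genes detected 7385, against 1876724 and 8437 in E8.5 Endo. *Tie1* was found in 94.9% of E8.5 Endo cells. The 4 erythroid markers summed to a median of 85780 CPM in E8.5 EryP. *Tek* was found in 2 of 25 macrophages (8.00%, 0.984 to 26.0), a blood population of the second flow cell with a median total of 3428065 counts. The part of depth in these shares was not tested. The endothelial markers *Kdr*, *Ramp2* and *Emcn* were at 0 in all 66 EryP cells, *Pecam1* was found in 23.7% of the 38 cells with *Tek* and 25.0% of the 28 without, and *Cdh5*, *Aplnr* and *Plvap* were each found in 1 cell. The 7 markers summed to a median of 0 CPM per cell (0 to 315). Of the 65 EryP cells with no count of *Cdh5*, 37 held *Tek* (56.9%). In the 36 cells left when those with transcripts of both sexes were removed, *Tek* was found in 52.8%.

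Within E8.5 EryP, the 24 markers of blood and endothelium were compared between the 38 cells with *Tek* and the 28 without. *Runx1*, a transcription factor of blood emergence, was found in 86.8% of the cells with *Tek* and 64.3% of those without, and *Kit*, the stem cell factor receptor, in 44.7% and 17.9%. Median totals were alike (2079448 and 2102733 counts). No other marker differed by more than 20 percentage points. At E10.5, no member was found in the 3 EryP cells or in the 22 that failed the filter. With 3 cells, shares up to 100% are allowed at E10.5, and over the 22 others (median total 701329 counts) up to 13.6%.

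By shares and medians the order of the receptors in megakaryocytes differed between stages, whereas by means *Tek* was above *Tie1* at both. *Tek* was found in 28 of 37 E8.5 Mk cells (75.7%, 58.8 to 88.2) and 37 of 73 E10.5 Mk cells (50.7%, 38.7 to 62.6). Its level ranged from 0 to 512 CPM with a median of 23.0 at E8.5, and from 0 to 2425 CPM with a median of 0.600 at E10.5. *Tie1* was found in 18 of 37 cells (48.6%, 31.9 to 65.6) at E8.5 and 62 of 73 (84.9%, 74.6 to 92.2) at E10.5, with medians of 0 and 7.27 CPM and highest values of 61.6 and 435 CPM. The levels of both receptors overlapped between stages. Gate, flow cell and erythroid transcripts also differed between E8.5 and E10.5 Mk, so stage cannot be told apart from them. The mean of *Tie1* was 5.40-fold higher at E10.5 (4.89 and 26.4 CPM), a change past 2-fold that 16.3% of 8983 genes showed in the same direction. The means of *Tek* were 70.0 and 68.9 CPM, but 1 E10.5 cell decided the second value: without it the mean was 36.2 CPM, and that cell was scaled 2.76 times as strongly as by its total count. *Ptprb* was found in 3 of 37 and 2 of 73 Mk cells. Against Endo of the same stage, *Tek* was 10.2-fold and *Tie1* 9.62-fold lower in E8.5 Mk, where 23.5% of 9620 genes were 2-fold or more lower and 16% higher. In E10.5 Mk *Tek* was 12.9-fold and *Tie1* 12.4-fold lower than in Endo (29.2% of 10234 genes were 2-fold or more lower and 22% higher), with log2 ratios of -3.67 and -3.58, or -4.51 and -2.74 without the highest cells.

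E8.5 Mk, the population with erythroid transcripts, was not uniform. Over its 37 cells *Tek* went with the summed erythroid markers (Spearman's rho 0.41) and against the megakaryocyte markers (rho -0.29). *Angpt1* did the opposite (rho -0.51 with the erythroid and 0.53 with the megakaryocyte markers), as did *Tie1* (-0.44 and 0.32). With the total count of a cell, rho was 0.50 for *Tie1*, -0.35 for *Tek* and 0.19 for *Angpt1*. The part of depth in these patterns was not tested. *Tie1* was found in 48.6% of these cells, but in 32.4% on thinned counts and 21.6% at 10 counts or more. In the 21 cells without transcripts of both sexes the values were 0.52 and -0.46 for *Tek*, -0.70 and 0.75 for *Angpt1*, and -0.41 and 0.26 for *Tie1*. *Pf4*, the platelet chemokine, had a mean of 444 CPM in the 11 cells with *Angpt1* and 44.6 CPM in the 26 without. *Vwf*, another megakaryocyte marker, was alike in these cells (36.8 and 35.5 CPM). It went against the pattern for the receptors, with 45.6 CPM in cells with *Tek* and 5.73 CPM in those without. For *Tie1* these means of *Vwf* were 27.2 and 44.1 CPM.

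**Figure D2:**
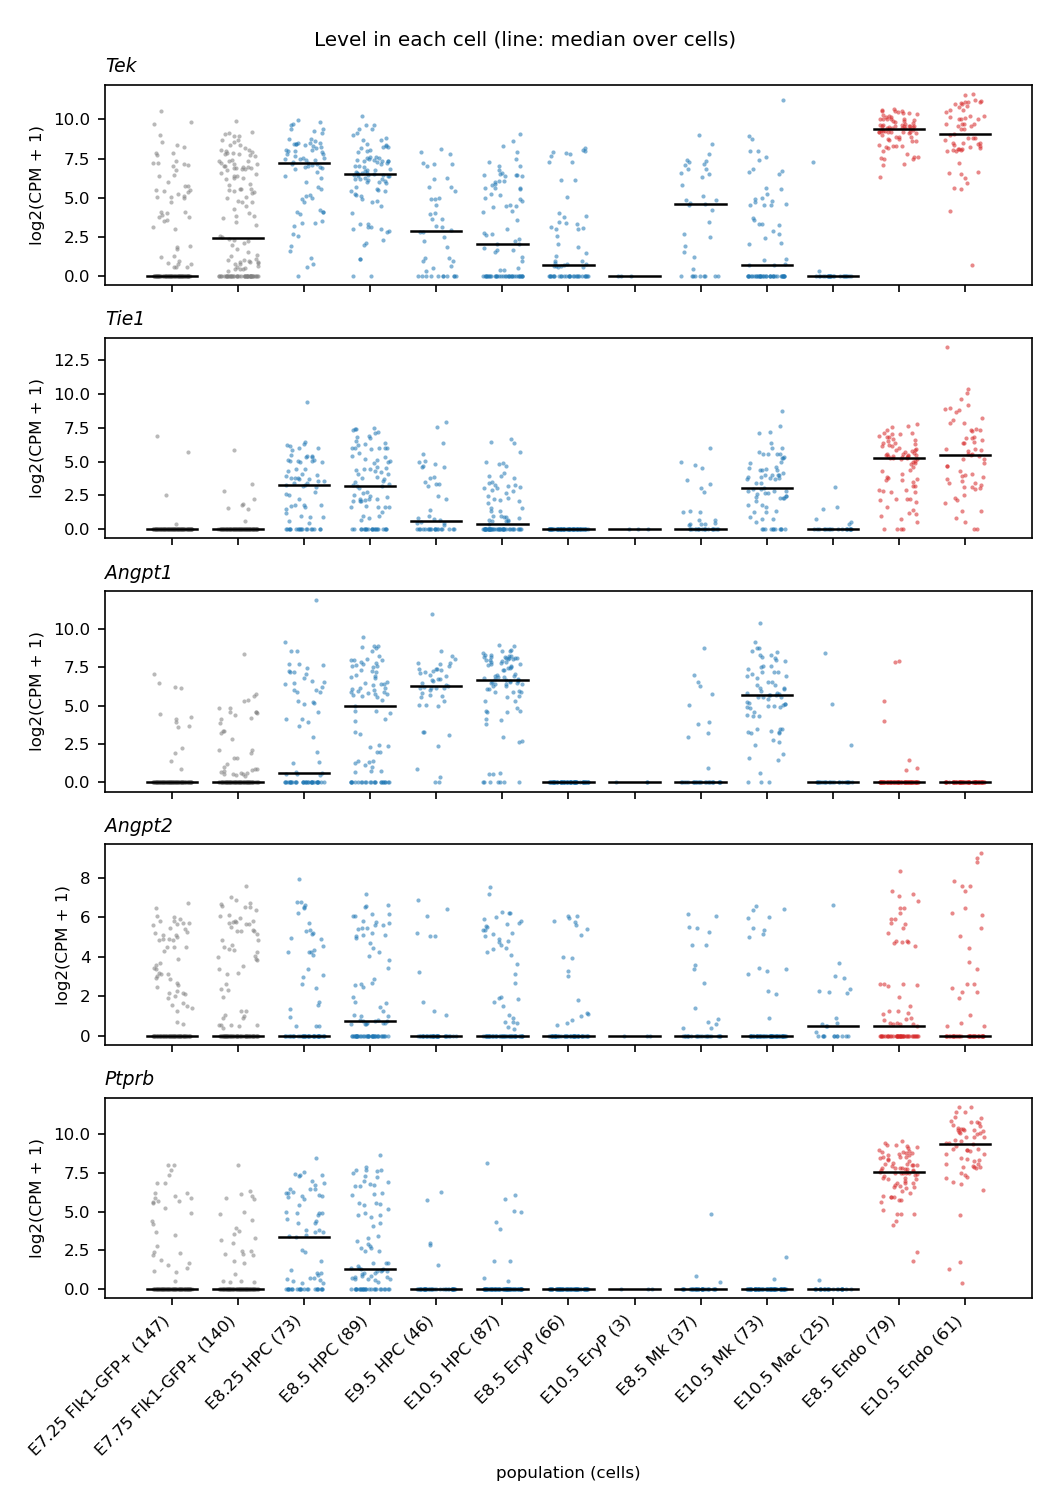
log2(CPM + 1) of each gene in each cell (points) by population (x axis, number of cells in parentheses), with the median over cells as a line. Endothelium is red, blood populations blue and *Flk1*-GFP+ cells grey. In E8.5 EryP the *Tek* panel has cells up to 290 CPM while all *Tie1*, *Angpt1* and *Ptprb* points lie at 0.

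In macrophages, where *Tek* and *Tie1* were 142.3-fold and 635-fold lower than in E10.5 Endo (35.1% of 10294 genes were 2-fold or more lower and 24.1% higher), *Tie1* was found in 6 of 25 cells (24.0%, 9.36 to 45.1) with a mean of 0.516 CPM, and in 12.0% on thinned counts. Of the mean of *Tek* in Mac, 6.23 CPM, 1 cell with 966 counts gave nearly all: without it the mean was 0.0092 CPM.

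The receptors were then followed in the same cells. As *Tek* was in every Endo cell, the cells with both were those with *Tie1*, 75 of 79 at E8.5 and 59 of 61 at E10.5. The share with both was 75.3% in E8.25 HPC, 75.3% in E8.5 HPC, 50.0% in E9.5 HPC and 34.5% in E10.5 HPC. Unrelated genes of the same single shares would give 74.3%, 74.7%, 44.7% and 31.4% in that order. With *Tek* in 72 of 73 E8.25 HPC and 87 of 89 E8.5 HPC, the values of these early HPC were nearly fixed and say little. In E10.5 HPC 24 cells held *Tek* alone, 14 *Tie1* alone and 19 neither. In E8.5 Mk 15 cells held *Tek* alone and 5 *Tie1* alone, whereas in E10.5 Mk 4 held *Tek* alone and 29 *Tie1* alone. Both were held by 13 E8.5 Mk cells, where unrelated genes would give 13.6, and by 33 E10.5 Mk cells, where they would give 31.4. Without cells holding transcripts of both sexes, both receptors were found in 43.1% of E10.5 Mk (45.2% with them), 23.8% of E8.5 Mk (35.1%), 33.8% of E10.5 HPC (34.5%) and 100% of E8.5 Endo (94.9%).

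**Figure D3:**
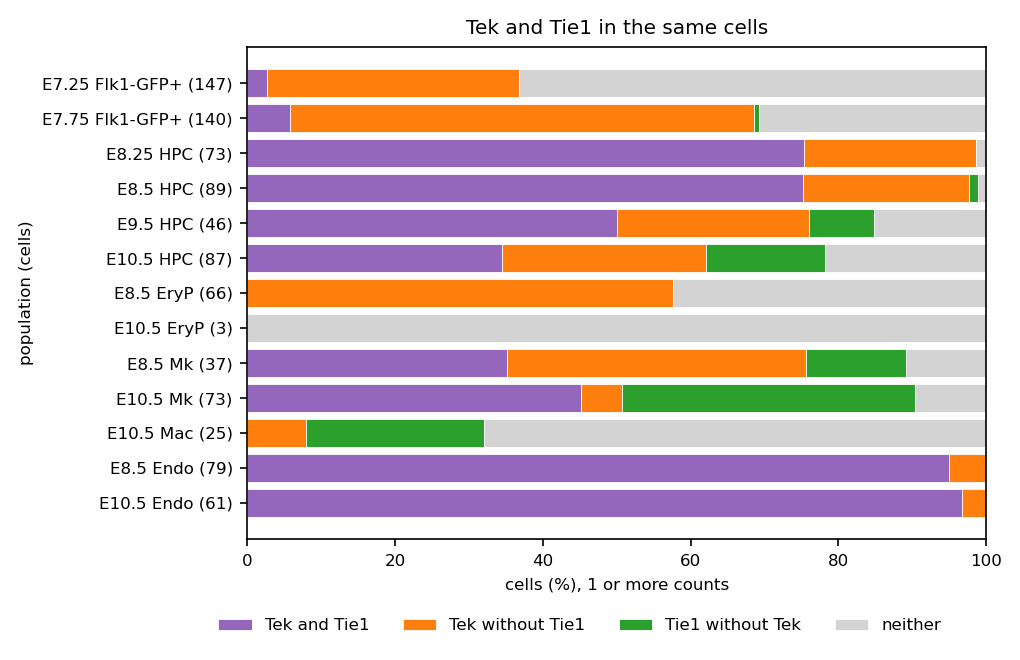
Share of cells (x axis, percent) with 1 or more counts of both *Tek* and *Tie1*, of either alone or of neither, for the 13 populations (y axis, number of cells in parentheses). E8.5 EryP shows *Tek* alone or neither, and E10.5 Mk has the widest bar for *Tie1* without *Tek* (29 of 73 cells).

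Levels of different genes were compared as mean CPM per kilobase of exon. *Tek* was 15.9 times *Tie1* in E8.5 Endo (152.1 and 9.56 CPM per kilobase) and 2.83 times *Tie1* in E10.5 Endo (188 and 66.6), or 6.15 times without the highest cells. In Mk it was 14.9 times *Tie1* at E8.5 and 2.73 times at E10.5, or 1.82 times without the highest cells. By medians over E10.5 Mk cells *Tek* was 0.086 times *Tie1*, the reverse order. The ratio was 8.76 in E8.25 HPC, 5.77 in E8.5 HPC, 2.38 in E9.5 HPC and 6.26 in E10.5 HPC.

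Before blood and endothelium were sorted apart, *Tek* was common and *Tie1* rare. *Tek* was found in 54 E7.25 cells (36.7%, 28.9 to 45.1; 0 to 1506 CPM, median 0) and 96 of 140 E7.75 cells (68.6%, 60.2 to 76.1; 0 to 936 CPM, median 4.33). *Tie1* was found in 4 E7.25 cells (2.72%, 0.746 to 6.82) and 9 of 140 E7.75 cells (6.43%, 2.98 to 11.9). All 13 *Tie1* cells held *Cdh5*, and 12 held *Tek*. Cells were divided by whether they held 4 or more of 6 haemato-endothelial genes (*Kit*, *Gata2*, *Fli1*, *Hhex*, *Lmo2*, *Tal1*). At E7.25 *Tek* was found in 58.1% (47.0 to 68.7) of the 86 cells of this class and 6.56% (1.82 to 15.9) of the other 61, and *Ptprb* in 32.6% (22.8 to 43.5) and 6.56% (1.82 to 15.9). At E7.75 *Tek* was found in 79.1% (69.3 to 86.9) of 91 and 49.0% (34.4 to 63.7) of 49 cells, and *Ptprb* in 18.7% and 20.4%. *Tie1* was found in 4 of 86 class cells at E7.25 (4.65%, 1.28 to 11.5) and 9 of 91 at E7.75 (9.89%, 4.62 to 17.9). Outside the class it was found in 0 of 61 and 0 of 49 cells, which allow 4.92% and 6.12%. At E7.25 the share within the class was below the share allowed outside it, so these cells cannot show a restriction to the class. The mean of *Ptprb* was 12.2 CPM at E7.25 and 5.35 CPM at E7.75, past 2-fold (log2 ratio -1.06; 5.46% of 8888 genes were as much lower). This ratio was -0.53 with a pseudocount of 10 CPM, -0.94 scaled by total count and -0.32 from mean log2 values, none of them past 2-fold, and the shares of cells with *Ptprb* were 21.8% and 19.3%. For *Tek* the log2 ratio was 0.74 by mean CPM, 1.09 from summed counts and 1.66 from mean log2 values. E7.25 and E7.75 cells were read on different flow cells, so stage and sequencing run cannot be told apart in these differences. The cells of each stage were read in 2 lanes, the only division of them that the labels give. The lanes of E7.25 differed in *Tek*, with 43.8% (32.2 to 55.9) and 29.7% (19.7 to 41.5) of cells.

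*Angpt1*, the activating ligand, was found mainly in HPC and E10.5 Mk. In HPC it was found in 40 of 73 cells (54.8%, 42.7 to 66.5) at E8.25, 66 of 89 (74.2%, 63.8 to 82.9) at E8.5, 44 of 46 (95.7%, 85.2 to 99.5) at E9.5 and 80 of 87 (92.0%, 84.1 to 96.7) at E10.5. Its levels ranged from 0 to 3722 CPM with a median of 0.552 at E8.25, from 0 to 710 CPM (median 31.0) at E8.5, from 0 to 2000 CPM (median 76.9) at E9.5 and from 0 to 491 CPM (median 101.8) at E10.5. The medians were thus in the order of the stages, while the means were closer together, at 101.7, 89.5, 142.1 and 139.5 CPM. At E8.25 the mean was 51.4 CPM without the highest cell. From E8.5 to E10.5 the mean was 1.56-fold higher in HPC (log2 ratio 0.63), which is not past 2-fold, whereas the difference of mean log2 values was 1.90.

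In Mk *Angpt1* was found in 11 of 37 cells (29.7%, 15.9 to 47.0) at E8.5 and 70 of 73 (95.9%, 88.5 to 99.1) at E10.5. Its level ranged from 0 to 423 CPM with a median of 0 at E8.5 and from 0 to 1337 CPM with a median of 49.6 at E10.5. The mean was 5.01-fold higher at E10.5 (23.0 and 115.2 CPM), where 16.3% of 8983 genes were 2-fold or more higher and 12.7% lower. The log2 ratio was 2.28, or 2.95 without the highest cells. Gate, flow cell and the erythroid transcripts of E8.5 Mk differed too, so stage cannot be told apart from them. Within E8.5 Mk, *Angpt1* went against the erythroid markers (rho -0.51). E8.5 EryP held no count in 66 cells, and 3 of 25 macrophages held *Angpt1* (12.0%, 2.55 to 31.2).

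Endothelium was nearly without *Angpt1*. It was found in 7 of 79 E8.5 Endo cells (8.86%, 3.64 to 17.4; highest 243 CPM) and 0 of 61 E10.5 Endo cells, which allows up to 4.92%, a state shared with 5.28% of 12324 genes. Among the 19 E10.5 Endo cells that failed the filter, 1 held 192 counts. At E8.5 the mean in HPC was 13.3-fold that in Endo (89.5 and 6.73 CPM), and 10.4% of 9433 genes were 2-fold or more higher in HPC. The log2 ratio was 3.55, or 4.15 without the highest cells. Mural cells, which surround vessels, are a known source of angiopoietin 1 and were not among the sorted populations. In E10.5 HPC the 3 mural markers in the filtered table (*Pdgfrb*, *Rgs5*, *Notch3*) were found in an average of 12.3% of cells and summed to a median of 0 CPM (0 to 134.1), and in E10.5 Mk in 3.20% of cells (median 0, highest 60.4 CPM), with *Pdgfrb* and *Rgs5* at 0. The 9 mesenchyme markers summed to medians of 0 and 0.301 CPM there.

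*Angpt1* and *Tek*, ligand and receptor, were then counted in the same cells. Both were found in 64 of 89 E8.5 HPC (71.9%), 34 of 46 E9.5 HPC (73.9%), 50 of 87 E10.5 HPC (57.5%) and 35 of 73 E10.5 Mk (47.9%). Unrelated genes would give 64.5, 33.5, 49.7 and 35.5 cells in that order. In E8.5 HPC the share was 51.7% at 10 counts or more, and 73.5% without cells holding transcripts of both sexes. In E8.5 Mk it was 18.9%, or 9.52% without those cells.

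*Angpt1* was low in *Flk1*-GFP+ cells, with means of 3.18 CPM at E7.25 and 5.55 CPM at E7.75. It was found in 9.52% (5.31 to 15.5) and 27.1% (20.0 to 35.3) of cells. The E7.75 lanes were far apart: 3 of 53 cells (5.66%, 1.18 to 15.7) held it in the first and 35 of 87 (40.2%, 29.9 to 51.3) in the second. The second lane was the shallower (median totals 2764815 and 1623886 counts). In the class defined above, *Angpt1* was found in 22.0% (14.0 to 31.9) of cells at E7.75 and outside it in 36.7% (23.4 to 51.7). Within the first lane these shares were 5.71% and 5.56%, and within the second 32.1% and 54.8%. At E7.25 they were 4.65% (1.28 to 11.5) and 16.4% (8.15 to 28.1).

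**Figure D4:**
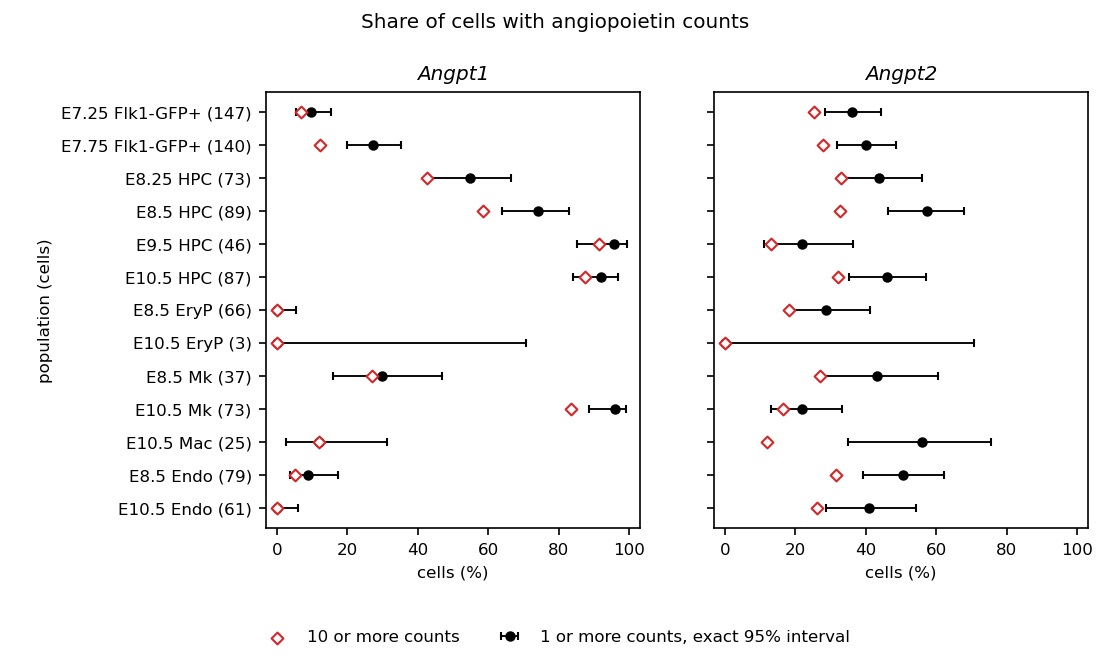
Share of cells (x axis, percent) with *Angpt1* (left) and *Angpt2* (right) in the 13 populations (y axis, number of cells in parentheses), at 1 or more counts with the exact 95% interval (black) and at 10 or more counts (open red). *Angpt1* spans 0 to 95.9% of cells, whereas *Angpt2* lies between 21.7 and 57.3% outside E10.5 EryP.

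*Angpt2*, the context-dependent ligand, was spread over all 12 populations other than E10.5 EryP, in 21.7% (E9.5 HPC) to 57.3% (E8.5 HPC) of cells. Its highest means were in endothelium, at 44.5 CPM at E10.5 (25 of 61 cells, 0 to 604 CPM, median 0) and 20.5 CPM at E8.5 (40 of 79 cells, 0 to 328 CPM, median 0.399). The other means ranged from 5.63 (Mac) to 16.8 CPM (E8.25 HPC), and every pair of neighbours in the order of means had overlapping quartile ranges. At 10 counts or more, *Angpt2* was found in 12.0 to 32.9% of cells of these populations, with Mac going from 56.0% to 12.0%. At E10.5 its mean in HPC was 2.91-fold lower, in Mk 5.61-fold lower and in Mac 7.89-fold lower than in Endo, changes past 2-fold that 30.4%, 29.2% and 35.1% of genes showed in the same direction. From mean log2 values the log2 ratios were -0.05, -0.91 and -0.74, none past 2-fold, and the shares of cells with *Angpt2* were 46.0% in HPC and 56.0% in Mac against 41.0% in Endo. The E7.25 lanes gave 50.7% (38.7 to 62.6) and 21.6% (12.9 to 32.7) of cells.

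*Angpt2* lies wholly inside *Mcph1*, a gene of chromosome condensation on the opposite strand (chr8:18595131-18803189), and shares none of its exon bases. The library kit does not mark strand, so reads from unspliced *Mcph1* RNA over the exons of *Angpt2* cannot be told apart from *Angpt2*. *Mcph1* was found in 70.5 to 100% of cells of every population. Over the cells of a population, rho between the genes ranged from -0.11 to 0.28. Of the 61 E10.5 Endo cells, 19 held both genes and 6 held *Angpt2* without *Mcph1*. *Angpt1* shares 737 exon bases with *Gm17473*, an antisense gene with 6 counts in all 1073 cells. *Ptprb* contains a snoRNA gene and a short unclassified gene that share no base with its exons, and *Tek* and *Tie1* overlap no other gene.

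In the order of mean levels, *Tek* ran from E10.5 Endo and E8.5 Endo through E8.25 HPC and E8.5 HPC down to E8.5 EryP, Mac and E10.5 EryP. Of 12 neighbouring pairs, 11 had overlapping quartile ranges, and the exception was E8.5 Endo against E8.25 HPC. The same held for *Ptprb*, again with E8.5 Endo apart from E8.25 HPC. For *Tie1*, *Angpt1* and *Angpt2* all 12 pairs overlapped. E10.5 Endo had the highest mean of *Tek*, *Tie1*, *Angpt2* and *Ptprb*, as it had for 18.4% of 12324 genes, and E9.5 HPC had that of *Angpt1*, as for 5.96%.

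Genes with the most similar pattern were found by Pearson's r of log2(mean CPM + 1) over the 13 populations, among 12323 genes. Nearest to *Tek* were *Cpd* (0.97), *Rab13* (0.96), *Egfl7* (0.96), *Ptk2* (0.96) and *Pitpnm2* (0.96). *Egfl7* encodes a secreted protein of endothelium, and *Ptk2* focal adhesion kinase. Nearest to *Tie1* were *Ecm1* (0.96), *Exoc3l2* (0.96), *Myct1* (0.94), *Shank3* (0.94) and *Gng11* (0.94). Nearest to *Ptprb* were *Srgap1* (0.99), *She* (0.99), *Flt4* (0.99), which encodes VEGFR3, *Zfpm2* (0.98) and *Rgs3* (0.98). *Angpt1* was nearest to *Rab38* (0.95), *Psma8* (0.95), *Gpr171* (0.94), *Stat4* (0.94) and *Ptk2b* (0.94). *Angpt2* was nearest to *Ash1l* (0.99), *Ppp1r9a* (0.98), *Slc35a5* (0.96), *Rab12* (0.96) and *Fam3c* (0.96). Among the members, r was 0.93 for *Tek* with *Angpt2*, 0.81 with *Ptprb*, 0.79 with *Tie1* and 0.15 with *Angpt1*. The populations differ in depth, and the 3 cells of E10.5 EryP, in which no member was found, weigh as much as any other population. Without them r was 0.88 for *Tek* with *Angpt2* and -0.21 with *Angpt1*.

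Other genes of the pathway were followed as 3 lists. Among 14 adaptors and effectors of Tie2, 12 reached 10 CPM in E10.5 Mk or Endo. Of these 3 were 2-fold or more higher in Mk and 1 was lower, with a median log2 ratio of 0.05 (all genes, -0.07). In the same comparison 22% of 10234 genes were higher and 29.2% lower. *Dok2*, an adaptor that binds activated Tie2, had means of 358 CPM in E10.5 Mk, 88.9 CPM in E10.5 HPC and 96.7 CPM in Mac, against 0.598 CPM in E8.5 Endo and no count in E10.5 Endo. *Ptpn11*, the phosphatase SHP2, had 290 CPM in E10.5 Mk and 30.7 CPM in E10.5 Endo. *Foxo1*, a transcription factor that Tie2 signalling restrains, was lower in blood at E10.5 (27.4 CPM in HPC, 30.7 CPM in Mk, 5.84 CPM in Mac) than in Endo (208 CPM).

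Of 8 other ligands, binding partners and shedding enzymes, 7 were in the filtered table and 5 reached 10 CPM in E10.5 HPC or Endo. *Itga5*, *Itgb1* and *Itgav*, integrins that bind angiopoietins or Tie2, and the protease *Mmp14* were lower in HPC, and none was higher (median log2 ratio -2.85; all genes, -0.15). In this comparison 20.4% of 10248 genes were higher and 30.4% lower. The mean of *Itgb1* was 166 CPM in E10.5 HPC and 1209 CPM in Endo. Of 12 transcription regulators, 9 reached 10 CPM, of which *Elf1* and *Gata2* were higher in E10.5 HPC and 5 were lower (*Ets1*, *Klf2*, *Klf4*, *Foxo1*, *Epas1*). *Elf1*, an ETS factor, had means of 250 CPM in E10.5 HPC and 10.2 CPM in Endo, whereas *Ets1* had 98.2 and 987 CPM. From E8.5 to E10.5 Endo, where *Ptprb* was higher, *Klf2*, *Klf4* and *Epas1* were higher and *Gata3* lower among 10 regulators, where 21.2% of all genes were higher and 16.4% lower (median log2 ratio 0.09; all genes, 0.06). In E8.5 EryP, 8 of 10 regulators were lower than in Endo and none was higher (27.5% and 18.6% of 9540 genes). *Elf1* had 17.2 CPM and *Ets1* 137.7 CPM there.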

How the data were processed

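Single yolk sac cells were sorted by the authors, loaded into C1 chips of Fluidigm, and read as Nextera XT libraries in pairs of 100 bases. The deposited read count tables come from Rsubread and featureCounts (Ensembl 84, GRCm38), and reads are not molecules. The deposited signal values are CPM that the authors made with scran size factors: counts times 1 factor per cell, summing to 699615 to 4176737 per cell. No alignment was repeated, and 0 columns of the files were left unused for want of a sample.

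The members and lists were chosen with earlier results of these data known. Detection needed 1 count. A level is the mean CPM of all cells of a population, and ratios are log2 of mean CPM + 1, called at 2-fold, with background genes at a mean of 10 CPM or more in either population. Counts of 0 allow 3 cells of the total. Totals per cell (484539 to 5955450 counts) limit the lowest shares. Named genes are the members, the 5 genes most like each member, and the pathway and marker lists; genes of the lists were named by role or as exceptions to their list. Gene positions and exon lengths came from GENCODE M21. Thinning to 840000 counts left out 46 cells. Alternatives were 10 counts, thinned counts, all captured cells, other scalings and pseudocounts, medians and longest transcripts. Added after seeing the data were those without *Cdh5*, without cells holding transcripts of both sexes and without the highest cells. Shares by lane and medians for ratios between genes were also added then. Fold and similarity estimates were tested on simulated data. The simulated counts had a fixed dispersion, genes of 10 CPM or more and no outlying size factors. The test thus does not cover means decided by a single cell. Computation used scipy 1.17.1, numpy 2.4.6 and pandas 2.3.3 under Python 3.11.15, and figures matplotlib 3.10.9.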

Additional observations from a re-analysis of the deposited data

Results flagged for a closer look

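*Angpt4*, a further angiopoietin gene, was left out of the filtered table, so its counts belong to no comparison above. In the unfiltered counts it was found in 9 of 150 captured E7.75 *Flk1*-GFP+ cells (6%, exact 95% interval 2.78 to 11.1). These cells held 793 of its 800 counts in the series, and 2 of the other captured cells held it, 1 in E8.25 HPC and 1 in E10.5 Mk. Both E7.75 lanes held such cells, 6 in the first and 3 in the second. Of the 9 cells 8 passed the filter of the study. Among these 8, *Tek* was found in 1, *Angpt2* in 5 and *Angpt1* in 3, the last at 1 count each, and 1 held 4 or more of the 6 haemato-endothelial genes.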

How the results depend on the processing

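No paired analysis was possible because the results come from no test, each population being 1 sample. Of 1314 values under alternatives, 958 stayed within their limits, 355 moved and 1 was counted as reversed. The reversed value was the ratio of *Tek* to *Tie1* per kilobase in E10.5 Mk. No log2 ratio was counted as reversed, although some changed sign. That of *Tek* between endothelial stages was 0.31 by mean CPM and -0.30 from mean log2 values. That of *Angpt1* in HPC from E8.25 to E8.5 was -0.18 by mean CPM and positive from mean log2 values. At 10 counts or more, *Tek* was found in 34.8% of E8.5 EryP and 38.4% of E10.5 Mk, *Tie1* in 52.1% of E10.5 Mk, *Angpt2* in 26.2% of E10.5 Endo, *Tek* with *Tie1* in 20.5% of E10.5 Mk and *Tek* with *Angpt1* in 51.7% of E8.5 HPC. In E10.5 Endo the median of *Tek* was 546 CPM. For *Tie1* there, the median was 42.8 CPM, and the mean was 190 CPM scaled by total count, 143.9 CPM without the highest cell and 177 CPM over all captured cells. Its log2 ratio between endothelial stages was 2.04 by total count, 1.54 from summed counts, 0.87 from mean log2 values and 1.66 without the highest cells. From mean log2 values, the ratio of *Tek* was -3.29 in HPC (E8.5 to E10.5), -1.58 in Mk and -0.30 in Endo, and that of *Angpt1* 1.90 in HPC and 3.97 in Mk. Without the highest cells, the ratio was -0.66 for *Tek* in Mk, 2.95 for *Angpt1* in Mk and -3.22 for *Ptprb* in HPC, the last being -1.56 with a pseudocount of 10 CPM and -1.72 from summed counts. With that pseudocount *Tie1* in Mk gave 1.29. *Tek* over *Tie1* per kilobase in E10.5 Endo was 6.15 without the highest cells and 13.3 by medians, and in E10.5 Mk 0.0860 by medians. By Spearman's rho, 2 of the 5 genes named for *Tek*, 3 for *Tie1*, 1 for *Angpt2* and 2 for *Ptprb* stayed among the first 20, and 2 for *Angpt2* over 12 populations. The cause of these shifts was not tested. Counts of reads without molecular identifiers limit all shares, and the 3 E10.5 EryP cells limit that population to no statement.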
